A study of Mus musculus with 3 samples.

Results

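Dentate granule cells are the small glutamatergic neurons of the dentate gyrus, and their nuclei were picked out here by marker genes from single-nucleus RNA libraries of the hippocampus. A nucleus was a member where it had 500 or more genes, at least 1 UMI of Prox1, at least 3 of the 5 markers Prox1, Glis3, Trpc6, Stxbp6 and Pdzd2 detected, a sum of these 5 of 10 or more per 10000 UMIs, and Gad1 plus Gad2 at no more than 1 per 10000. The rule gave 1824 nuclei of 27426 barcodes, with 1018 in mouse 1, 657 in mouse 2 and 149 in mouse 3. Prox1 (ENSMUSG00000010175, mm10 chromosome 1, 190118035 to 190170714, minus strand) encodes a homeobox factor that marks granule cells and also some interneurons. Gad1 and Gad2 are the genes of the GABA-making enzymes, used by interneurons.

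The tissue came from 3 adult female mice of genotype Scn8aD/+, heterozygous for the D allele of a voltage-gated sodium channel gene and sampled after seizure onset. All 3 form 1 group, and control animals were not analysed here. Every mouse is a batch by itself, which means that a difference between mice and one between batches cannot be told apart. Nuclei had been sorted after propidium iodide staining, and RNA of the cytoplasm and of distal processes is largely absent from such libraries. Comparisons therefore lie between granule nuclei and other nuclei of the same mice, and say nothing of what the mutation or the seizures changed.

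Granule cells receive the main cortical input of the hippocampus and send axons, the mossy fibres, to CA3 and the hilus, where their large terminals store zinc and release glutamate. The dentate gyrus is among the few regions of the adult rodent brain that keeps adding neurons. In epilepsy models granule cells are known for mossy fibre sprouting, for altered levels of neuropeptides and the growth factor gene Bdnf, and for raised Gad1.

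Sequencing gave 100230288, 50931257 and 140527761 UMIs over 8863, 13904 and 4659 barcodes in mice 1, 2 and 3. Granule nuclei had a median of 10975, 5227 and 16960 UMIs, against 8688, 1740.5 and 26053 in all other nuclei. The median was 16020, 3740 and 38885 UMIs in other glutamatergic nuclei, the nearest class, which numbered 2489, 2230 and 1297. Between mice, 36 barcodes were shared by mice 1 and 2, 13 by mice 1 and 3 and 25 by mice 2 and 3.

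The limit on Gad1 plus Gad2 decided much of the membership. The marker conditions left 1881, 987 and 1610 nuclei in mice 1, 2 and 3, of which the Gad limit removed 863, 330 and 1461. Among the removed nuclei 791, 205 and 1184 were within the limit for Gad2 alone. In the removed nuclei Dock10, a guanine nucleotide exchange factor gene used by neither gate, was at 607, 481 and 499 CPM (UMIs per 1000000 of all UMIs of a class), against 612, 479 and 464 CPM in the members. The inhibitory neuron marker Erbb4 was at 284, 845 and 213 CPM in the removed nuclei, against 106, 272 and 392 CPM. Removed nuclei over the limit for Gad2 had Erbb4 at 1527, 1625 and 691 CPM, and Dock10 at 475, 475 and 472 CPM. Those within the limit for Gad2 had Erbb4 at 155, 388 and 102 CPM, and Dock10 at 621, 485 and 505 CPM. Similar Dock10 levels alone thus do not settle what the removed nuclei are. As a result, 11.4%, 2.63% and 32.4% of all other nuclei met the marker conditions too, so in the comparison with all other nuclei, nuclei with granule markers stand on both sides.

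**Figure D1:**
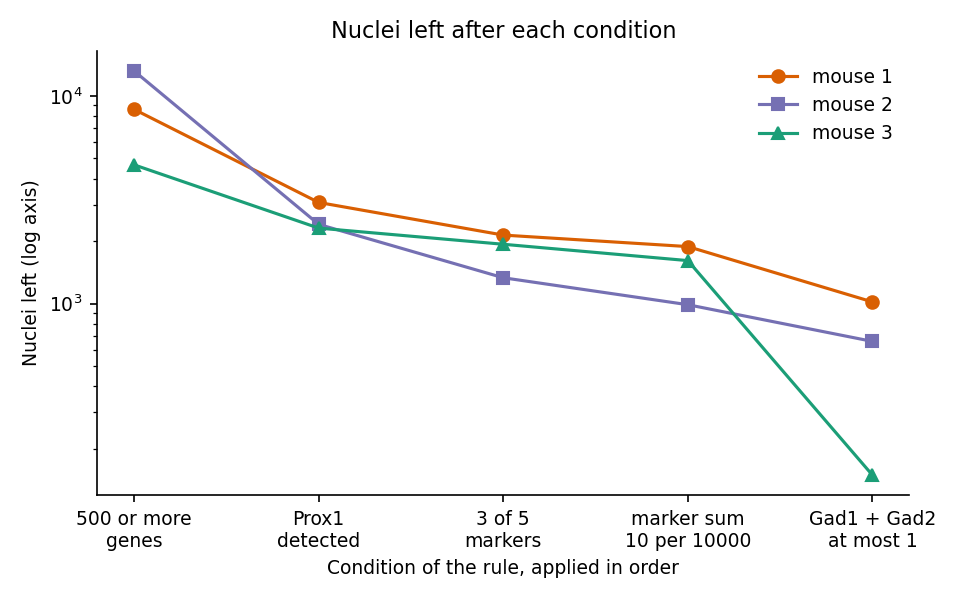
Nuclei left in each mouse after each condition of the rule, on a log axis. In mouse 3 the last condition, on Gad1 plus Gad2, takes the count to 149, against 1610 before it.

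Members made up 11.8% of nuclei with 500 or more genes in mouse 1 (exact 95% binomial interval 11.1 to 12.5), 4.98% in mouse 2 (4.61 to 5.36) and 3.20% in mouse 3 (2.71 to 3.75). With the limit on Gad2 alone the shares were 21.0%, 6.53% and 28.6%, so the order of the mice depends on that condition. The intervals cover counting error only, and sorting, depth and the rule can set these shares. Nuclei just inside the marker sum, at 10 to under 12 per 10000, numbered 43, 79 and 24, and had Rfx3 at 534, 382 and 201 CPM. Those just outside, at 8 to under 10, numbered 53, 81 and 34, and had Rfx3 at 506, 418 and 265 CPM.

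Members of mouse 3 held more astrocyte marker RNA than those of the other mice. The 6 oligodendrocyte markers summed to 850, 1074 and 1069 CPM in members of mice 1, 2 and 3. St18, 1 of these 6, was detected in 91.5%, 73.7% and 77.2% of members. The 5 microglia markers summed to 71.0, 224 and 22.6 CPM and were lowest in mouse 3. Of the 149 members of mouse 3, 66 (44.3%) carried 20 or more UMIs per 10000 of 8 glial genes (glial-marked nuclei), against 143 (21.8%) in mouse 2 and 106 (10.4%) in mouse 1. By the same measure 33.2%, 20.3% and 37.0% of other glutamatergic nuclei of mice 1, 2 and 3 were glial-marked, and 43.3%, 30.7% and 32.0% of all other nuclei. The astrocyte glutamate transporter gene Slc1a3 was at 251 CPM in members of mouse 3, 38.0 CPM in mouse 2 and 16.5 CPM in mouse 1. The 6 astrocyte markers summed to 383, 565 and 1882 CPM in granule nuclei of mice 1, 2 and 3, against 1557, 1038 and 1922 CPM in other glutamatergic nuclei, where Gpc5 makes up most of the sum. None of the 6 was at 0 in any mouse. With the Gad2 limit alone the sum in granule nuclei was 359, 509 and 479 CPM. The part of glial RNA in the results was not tested beyond the repeat without these nuclei, which left 912, 514 and 83 members. That repeat took glial-marked nuclei out of the granule class only and left the other classes as they were.

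To check the label, each marker was tested in nuclei chosen without it, with the same edgeR quasi-likelihood test as below against all other nuclei. Pdzd2 passed, at 480, 551 and 850 CPM in the nuclei chosen by the other 4 markers, against 143, 174 and 542 CPM in all other nuclei of mice 1, 2 and 3 (log2 fold change 1.45 ± 0.29 SE, adjusted p = 0.0417). Prox1 (1.44 ± 0.37, adjusted p = 0.248), Glis3 (1.80 ± 0.39, 0.0588), Trpc6 (1.65 ± 0.26, 0.0526) and Stxbp6 (1.46 ± 0.30, 0.0690) did not. All 5 were higher in the chosen nuclei of all 3 mice. With the limit on Gad2 alone all 5 passed, with log2 fold changes of 2.80 for Prox1, 3.02 for Glis3, 2.51 for Trpc6, 2.29 for Stxbp6 and 2.42 for Pdzd2. Without mouse 3 all 5 passed as well, at 1.87 to 2.38. Pdzd2 lost its call without mouse 1 (1.19, adjusted p = 0.105), without mouse 2 (1.23, 0.156) and without the mouse block.

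Against other glutamatergic nuclei, granule nuclei had higher levels of 10 of 14 established granule genes and 10 of 27 adhesion and guidance genes, and lower levels of 7 of 31 second messenger genes. Without mouse 2 these counts were 6 of 15 granule genes, 8 of 27 adhesion and guidance genes and 2 of 31 second messenger genes. Plpp4, Itgb8 and Kif18a were among the highest folds and Scube1, Lats2 and Plch2 among the lowest. Calls needed a fold change of 1 or more on the log2 scale, up or down, together with an adjusted p under 0.05. Of 16034 genes tested 1325 were called, which is 8.26%, with 562 higher (3.51%) and 763 lower (4.76%). Both classes were defined by expression, so the total is context. The median log2 fold change over all genes tested was -0.004. The 3 mice are the replicates (n = 3), mouse was a block in the fit, and p-values rest on the spread among them. The count was 718 when mouse 1 was left out, 410 when mouse 2 was left out and 307 when the block was dropped. Without mouse 2, 187 of 17566 genes tested were called higher and 223 lower. These totals, not the shares of the full fit, belong beside each list count given without mouse 2 in this comparison.

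The highest fold among the genes named by rule was that of Zfp536, which encodes a zinc finger repressor of neuronal differentiation. Zfp536 (ENSMUSG00000043456, chromosome 7, 37472135 to 37773641, minus strand) was at 338, 427 and 825 CPM in granule nuclei of mice 1, 2 and 3, against 15.6, 74.6 and 17.2 CPM in other glutamatergic nuclei. The groups did not overlap, and the log2 fold change was 4.16 ± 0.62 (adjusted p = 0.0172), a call lost without mouse 1. Plpp4 (ENSMUSG00000070366, chromosome 7, 129257031 to 129391412, plus strand), a phospholipid phosphatase gene, was at 137, 198 and 113 CPM in granule nuclei, against 8.68, 16.7 and 6.83 CPM. Every granule value of Plpp4 lay above every other value, and its log2 fold change of 3.82 ± 0.14 (adjusted p = 0.00326) had a small error. The RNA editing family gene Adarb2 was at 913, 676 and 582 CPM in granule nuclei, against 38.1, 136 and 28.3 CPM (3.73 ± 0.50, adjusted p = 0.0141). Adarb2 is also known from interneurons. The 6 inhibitory neuron markers, of which the rule limits Gad1 and Gad2, summed to 138, 305 and 441 CPM in granule nuclei, to 49.2, 212 and 52.6 CPM in other glutamatergic nuclei and to 1115, 1151 and 1064 CPM in all other nuclei. Erbb4 made up 106, 272 and 392 CPM of the granule sums and Dlx1 was at 0 in granule nuclei of mouse 3, while the part of interneuron RNA in the Adarb2 value was not tested.

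Pappa, which encodes a protease that frees insulin-like growth factors from their binding proteins, differed widely between mice. Pappa was at 71.9, 183 and 902 CPM in granule nuclei, against 2.56, 14.8 and 90.1 CPM in other glutamatergic nuclei. The groups overlapped, since the granule value of mouse 1 lay below the other value of mouse 3, while within every mouse granule nuclei were higher (3.83 ± 0.34, adjusted p = 0.00722). Itgb8, an integrin gene, was at 106, 75.2 and 66.3 CPM in granule nuclei, against 5.71, 8.37 and 7.35 CPM (3.49 ± 0.28, adjusted p = 0.0063). Kif18a, a kinesin gene, was at 41.5, 61.1 and 89.7 CPM, against 4.42, 7.52 and 8.42 CPM (3.18 ± 0.12, adjusted p = 0.00326). The collagen gene Col27a1 averaged 63.8 ± 14.0 CPM in granule nuclei and 7.35 ± 3.25 CPM in other glutamatergic nuclei (SD, n = 3 each). Thsd7a averaged 417 ± 55.1 CPM and 51.8 ± 8.91 CPM in the same order of classes, and the guanine nucleotide exchange factor gene Vav3 219 ± 50.9 CPM and 28.4 ± 6.78 CPM. Cald1, Gprc5b, Necab3 and Svil were also among the 15, with log2 fold changes of 3.19, 3.01, 2.91 and 2.90. Svil was at 218 CPM in granule nuclei of mouse 3, against 32.5 and 45.0 CPM in those of mice 1 and 2.

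Genes lower in granule nuclei were led by Scube1, a secreted glycoprotein gene, at 7.59, 34.7 and 45.8 CPM in granule nuclei, against 82.3, 154 and 147 CPM in other glutamatergic nuclei (-2.44 ± 0.32, adjusted p = 0.0130). The Hippo pathway kinase gene Lats2 averaged 13.1 ± 4.92 CPM in granule nuclei and 60.2 ± 14.1 CPM in other glutamatergic nuclei (-2.31 ± 0.18, adjusted p = 0.0063). The phospholipase C gene Plch2 was at 10.4, 18.9 and 16.6 CPM, against 91.3, 67.5 and 51.6 CPM (-2.28 ± 0.29, adjusted p = 0.0129). In none of these 3 did the groups overlap, and 10.5% of all genes tested had every granule value below every other value, against 10.3% with every granule value above. The RNA-binding protein gene Khdrbs3 averaged 258 ± 128 CPM in granule nuclei and 1049 ± 67.8 CPM in other glutamatergic nuclei (SD, n = 3 each). Cntnap5c, Matn2, Thsd4, Ccbe1, Hunk and the CA1 marker Mpped1 had log2 fold changes of -2.27 to -2.18. Without mouse 2 the calls of Scube1, Cntnap5c, Khdrbs3 and Mpped1 were lost.

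**Figure D2:**
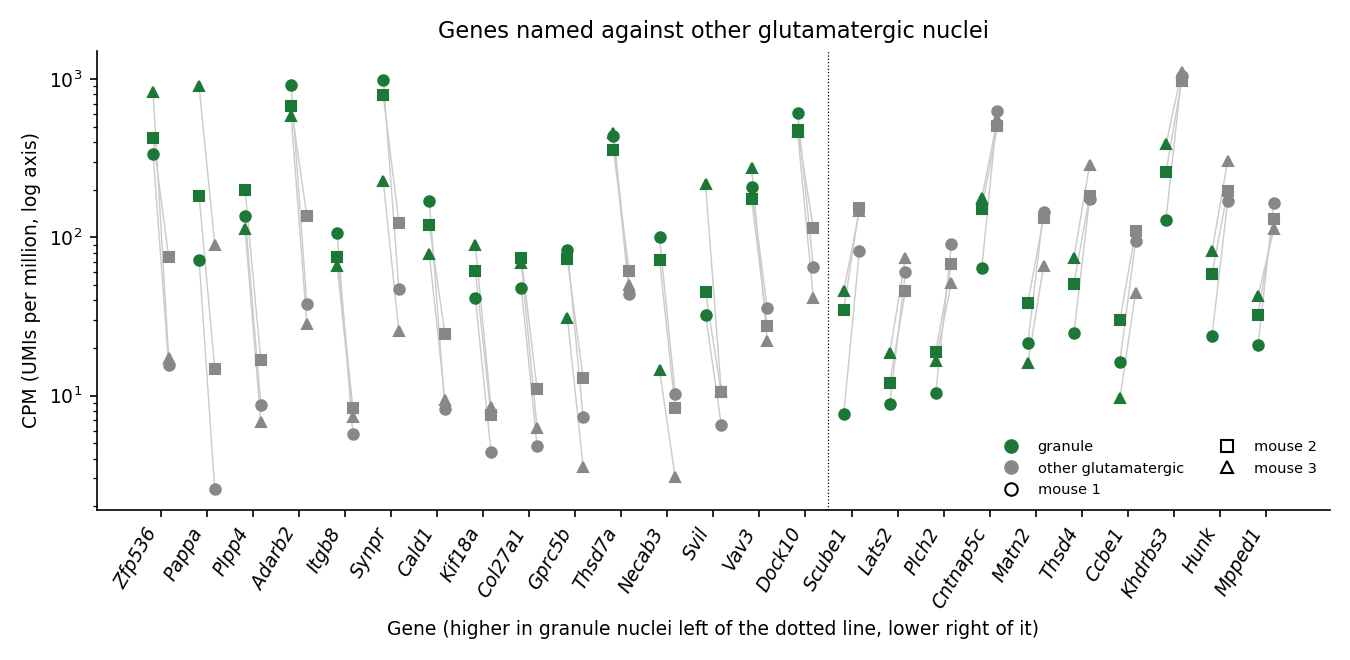
Levels of the 25 genes named by rule in CPM on a log axis, with granule nuclei in green left of other glutamatergic nuclei in grey, 1 symbol per mouse and a line joining the classes of a mouse. Within every mouse all 15 genes left of the dotted line are higher in granule nuclei and all 10 right of it lower, for example Plpp4 at 137, 198 and 113 against 8.68, 16.7 and 6.83.

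Genes known from granule cells, none of which took part in the rule, formed a list of their own. Of 14 tested, 10 were called higher and none lower, with a median log2 fold change of 2.11. Over all genes tested 3.51% were called higher and 4.76% lower. These genes were picked as known granule genes, with earlier results of these data known, so their direction is not an independent check of the label. Synpr, which encodes the vesicle protein synaptoporin of mossy fibres, was at 987, 789 and 226 CPM in granule nuclei, against 47.2, 124 and 25.4 CPM in other glutamatergic nuclei (3.35 ± 0.38, adjusted p = 0.0102). C1ql2, a secreted organiser of mossy fibre synapses, was at 30.1, 15.3 and 6.76 CPM, against 3.86, 3.79 and 0.856 CPM (2.62 ± 0.25, adjusted p = 0.00801). Its relative C1ql3 was at 308, 155 and 125 CPM, against 61.4, 47.7 and 76.6 CPM (1.55 ± 0.35, adjusted p = 0.0452). All 3 were highest in granule nuclei of mouse 1 and lowest in those of mouse 3. Plk5 (3.95 ± 0.44), Npnt (3.04 ± 0.26), Dock10 (2.89 ± 0.29), Maml2 (2.20 ± 0.29), Cdh9 (2.02 ± 0.14), Lrrtm4 (1.04 ± 0.14) and Dsp (3.93 ± 0.84) were called as well, Dsp at no more than 8.74 CPM. Calb1, the calbindin gene, did not pass, at 42.6, 43.7 and 37.2 CPM in granule nuclei, against 34.6, 20.3 and 12.3 CPM (0.94 ± 0.23, adjusted p = 0.0557). Without mouse 2 the calls of Dsp, C1ql3, Maml2 and Lrrtm4 were lost, and without mouse 1 those of C1ql3 and Lrrtm4. Ahcyl2, Pcp4 and Lct did not pass in the full set either, and Lct was at 0 UMIs in granule nuclei of mouse 3.

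Of 24 transcription regulators 3 were called higher and 3 lower, with a median of -0.14, beside 3.51% higher and 4.76% lower over all genes. Leaving out mouse 2 gave 1 higher and 2 lower, with Rfx3, Zfpm2 and Pou3f1 lost, and Pou3f1 was also lost without mouse 1. Mef2c, an activity-responsive factor gene, averaged 504 ± 85.0 CPM in granule nuclei and 140.4 ± 26.7 CPM in other glutamatergic nuclei (1.80 ± 0.12, adjusted p = 0.0062). Rfx3, a ciliary gene regulator, was at 861, 751 and 311 CPM, against 205, 224 and 146 CPM (1.59 ± 0.24). Zfpm2, a cofactor of GATA proteins, averaged 1068 ± 273 CPM in granule nuclei and 346 ± 13.1 CPM in other glutamatergic nuclei. Fezf2, a factor gene of cortical projection neurons, was lower, averaging 7.22 ± 3.04 CPM in granule nuclei and 29.5 ± 7.87 CPM in other glutamatergic nuclei (-2.16 ± 0.26). Pou3f1, also a CA1 marker, had a log2 fold change of -1.51 ± 0.26. Zbtb20, a hippocampal factor gene, was abundant in both, at 2337, 2357 and 2147 CPM in granule nuclei, against 2356, 2754 and 1908 CPM (-0.07 ± 0.14).

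Among genes of transmitter release 3 of 25 were called higher and 3 lower, with a median of -0.18, where all genes gave 3.51% and 4.76%. The zinc transporter gene Slc30a3, which loads zinc into synaptic vesicles, was at 101, 95.2 and 31.5 CPM in granule nuclei, against 13.7, 15.6 and 6.81 CPM in other glutamatergic nuclei (2.54 ± 0.19, adjusted p = 0.0062). The vesicle protein gene Sv2c was at 151, 138 and 141 CPM, against 13.9, 14.0 and 67.8 CPM (2.58 ± 0.56, adjusted p = 0.0422). The groups did not overlap for either gene. The 3 called lower were Unc13b, Cadps and Cadps2, whose proteins act in vesicle priming. Unc13b averaged 115 ± 38.4 CPM in granule nuclei and 283 ± 102 CPM in other glutamatergic nuclei, Cadps 577 ± 52.1 CPM and 1189.5 ± 164 CPM, and Cadps2 102 ± 9.84 CPM and 275 ± 90.5 CPM. The third called higher is Synpr, given above. Other priming genes did not pass, with log2 fold changes of -0.16 ± 0.11 for Unc13a (adjusted p = 0.386), -1.08 ± 0.36 for Unc13c (0.114) and -0.08 ± 0.12 for Rims1 (0.691). Without mouse 2 the calls of Sv2c, Cadps and Cadps2 were lost and Unc13c was called lower, and without mouse 1 Sv2c was lost. Cadps also lost its call with the Gad2 limit alone and without glial-marked granule nuclei.

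Adhesion and guidance genes had 10 of 27 called higher and 2 lower, with a median of 0.35, against 3.51% and 4.76% of all genes. Without mouse 2 there were 8 higher and none lower, with Epha7, Lrrtm4, Robo1 and Epha6 lost and Gpc4 and the semaphorin genes still called, and without mouse 1 Sema5b and Lrrtm4 were lost. The secreted guidance gene Sema3a was at 50.3, 47.7 and 166 CPM in granule nuclei, against 7.61, 9.33 and 15.2 CPM in other glutamatergic nuclei (2.82 ± 0.20, adjusted p = 0.0062). Sema5a (2.10 ± 0.38) and Sema5b (1.57 ± 0.26) were also higher. Ncam2, a cell adhesion molecule gene, averaged 1995 ± 290.0 CPM in granule nuclei and 546 ± 37.6 CPM in other glutamatergic nuclei, and St8sia4, which adds polysialic acid to NCAM, 35.2 ± 15.6 CPM and 8.79 ± 2.67 CPM. Nectin1, a puncta adherens gene, averaged 54.6 ± 14.5 CPM and 19.0 ± 0.674 CPM. Gpc4, whose protein is a ligand of Lrrtm4, was higher by 1.52 ± 0.14 and the receptor gene Epha7 by 1.23 ± 0.12. Its relative Epha6 was lower, at 1446, 2145 and 2389 CPM in granule nuclei, against 4911, 6003 and 5075 CPM (-1.49 ± 0.17, adjusted p = 0.0103), as was the Slit receptor gene Robo1 (-1.38 ± 0.21).

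**Figure D3:**
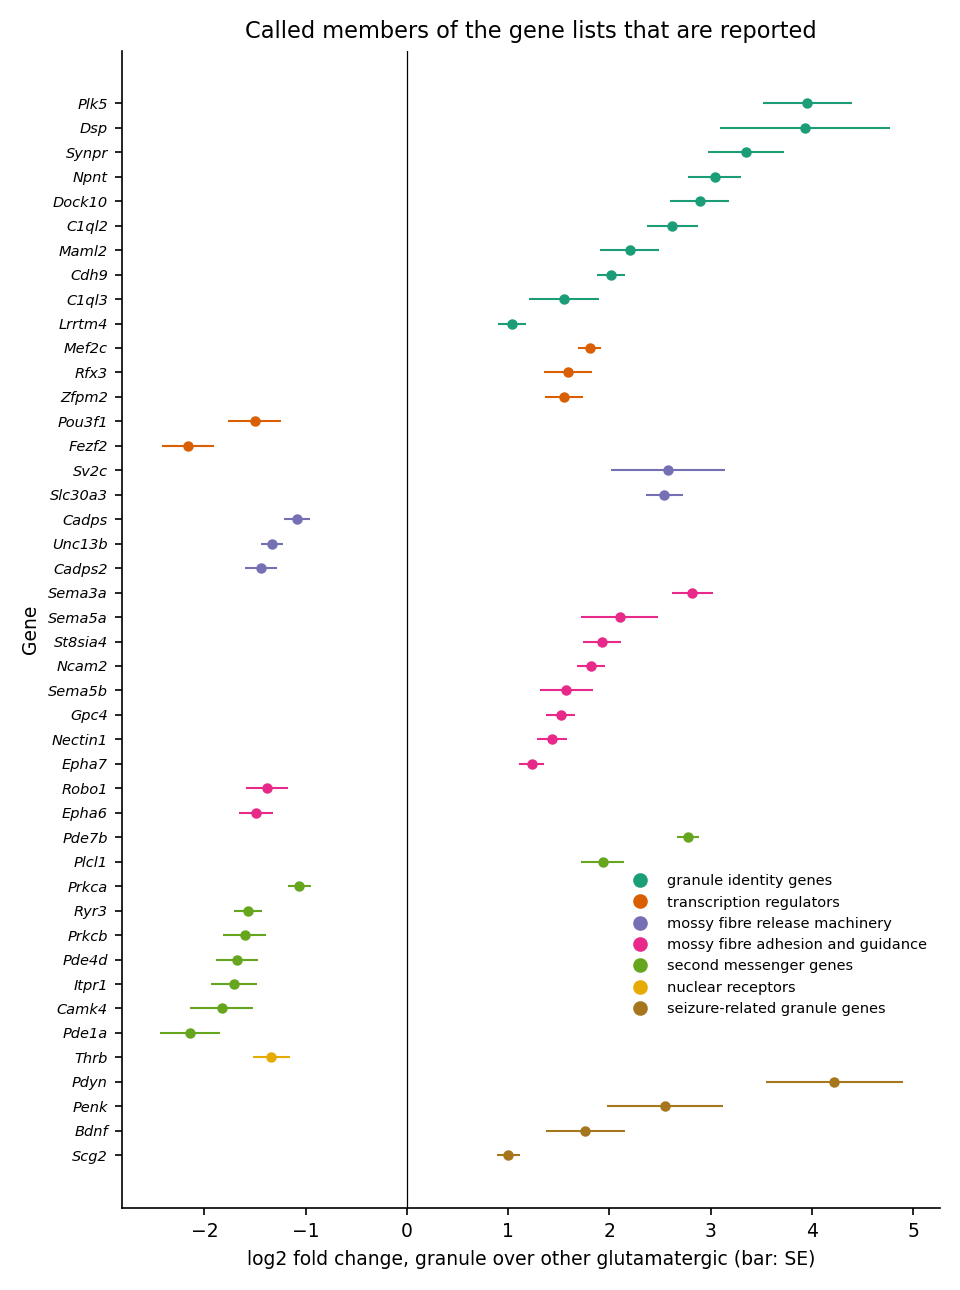
Log2 fold change of granule over other glutamatergic nuclei with its standard error, for the reported called members of 7 gene lists, each gene shown once under the first list that holds it. Granule identity genes lie right of 0, from Plk5 at 3.95 to Lrrtm4 at 1.04, and most second messenger genes left of it, down to Pde1a at -2.15.

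Among second messenger genes 2 of 31 were called higher and 7 lower, with a median of -0.17, while 3.51% and 4.76% of all genes were called. With mouse 2 left out the 2 higher genes were called and only Ryr3 and Prkcb were lower, as Itpr1, Camk4, Pde1a, Pde4d and Prkca lost their calls. Prkca was also lost without mouse 1. The phosphodiesterase genes split. Pde7b averaged 123 ± 32.5 CPM in granule nuclei and 17.1 ± 2.61 CPM in other glutamatergic nuclei (2.78 ± 0.11, adjusted p = 0.00326). Pde1a, a calmodulin-dependent phosphodiesterase gene, was at 146, 282 and 370.0 CPM, against 1166, 1089.5 and 956 CPM (-2.15 ± 0.30, adjusted p = 0.0148), and Pde4d was lower by a log2 fold change of -1.68 ± 0.21. Neither Pde7b nor Pde1a overlapped between the classes. The genes of intracellular calcium release channels Ryr3 and Itpr1 were lower, Ryr3 averaging 361 ± 55.8 CPM in granule nuclei and 1030.1 ± 24.5 CPM in other glutamatergic nuclei, and Itpr1 82.0 ± 27.7 CPM and 252 ± 44.1 CPM. Kinase genes Camk4 (-1.83 ± 0.31), Prkcb (-1.60 ± 0.21) and Prkca (-1.06 ± 0.12) were lower as well. Plcl1, of a phospholipase C-like protein, was higher at 702 ± 59.7 CPM, against 185 ± 62.8 CPM (1.94 ± 0.21).

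Of 19 nuclear receptor genes none was called higher and 2 lower, with a median of -0.13, beside 3.51% higher and 4.76% lower over all genes. Without mouse 2 there was 1 lower, Thrb. The thyroid hormone receptor gene Thrb was one of them, averaging 121 ± 23.9 CPM in granule nuclei and 294 ± 36.8 CPM in other glutamatergic nuclei (-1.34 ± 0.18, adjusted p = 0.0147).

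Seizure-related granule genes were a list of neuropeptide, growth factor and other genes known from epilepsy models, of which 5 of 21 were called higher and 1 lower, with a median of 0.63, where 3.51% of all genes were called higher and 4.76% lower. Without control mice the values give the level in these animals, not a change. Penk (ENSMUSG00000045573, chromosome 4, 4133531 to 4138819, minus strand), the enkephalin precursor gene, was at 108, 30.5 and 189.8 CPM in granule nuclei, against 5.73, 9.33 and 52.0 CPM in other glutamatergic nuclei (2.55 ± 0.57, adjusted p = 0.0453). Its groups overlapped, as the granule value of mouse 2 lay below the other value of mouse 3. Pdyn, the dynorphin precursor gene, was at 6.86, 5.88 and 20.8 CPM, against 0.129, 1.20 and 0.696 CPM (4.22 ± 0.67, adjusted p = 0.0197), with no overlap. Bdnf was at 652, 451 and 1014 CPM in granule nuclei, against 107, 113 and 586 CPM (1.76 ± 0.39, adjusted p = 0.0446). Bdnf overlapped in the same way as Penk. Scg2, the secretogranin II gene, was at 146, 65.3 and 133 CPM, against 66.8, 31.1 and 69.4 CPM (1.00 ± 0.11, adjusted p = 0.0106), with overlap, and its fold lies at the limit of a call. Sv2c, given above, is the fifth called higher. Npy, known to appear in mossy fibres after seizures, did not pass, at 10.9, 25.0 and 31.7 CPM, against 7.28, 16.2 and 39.7 CPM (0.24 ± 0.25, adjusted p = 0.569). Without mouse 2 the calls of Penk, Bdnf, Sv2c and Scg2 were lost, and without mouse 1 those of Bdnf, Sv2c and Scg2. Without Scrublet doublets Penk, Bdnf and Sv2c were not called. Without the mouse block none of these 5 was called.

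**Figure D4:**
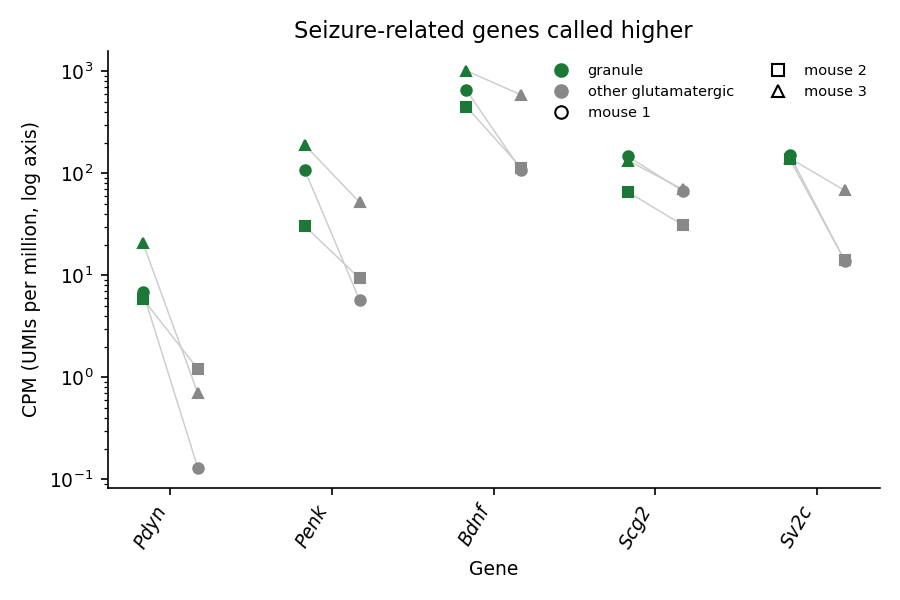
Levels of the 5 seizure-related genes called higher, in CPM on a log axis, granule nuclei in green left of other glutamatergic nuclei in grey, 1 symbol per mouse. Pdyn, Penk, Bdnf, Scg2 and Sv2c are higher in granule nuclei within every mouse, as with Penk at 108, 30.5 and 189.8 against 5.73, 9.33 and 52.0.

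Bdnf and Scg2 are textbook targets of the cyclic AMP response element (CRE), the binding site of CREB. The full site TGACGTCA and its short form TGACG were searched on both strands of RefSeq promoters (GRCm38.p6, 250 bases before to 50 after a start). The full site, which contains the short form, is in 588 of 32851 promoters (1.79%) and the short form in 6837 (20.8%). The single Scg2 promoter holds a full site and 1 of 7 Bdnf promoters the short form, while the 2 Pdyn promoters and the 1 Sv2c promoter hold neither. Penk was not searched. These are shown because they are the promoters of called genes with a match, with the full site of Scg2 and, for Bdnf, the short form as it reads on the opposite strand (CGTCA) in capitals. A match in the letters is a description.
Scg2, chr1:79439977-79440276, minus strand: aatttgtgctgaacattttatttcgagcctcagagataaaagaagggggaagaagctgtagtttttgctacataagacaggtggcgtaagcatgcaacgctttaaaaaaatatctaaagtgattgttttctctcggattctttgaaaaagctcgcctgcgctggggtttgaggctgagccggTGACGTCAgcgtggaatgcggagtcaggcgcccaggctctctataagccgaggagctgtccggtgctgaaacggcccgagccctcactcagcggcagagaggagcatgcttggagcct
Bdnf, chr2:109692186-109692485, plus strand: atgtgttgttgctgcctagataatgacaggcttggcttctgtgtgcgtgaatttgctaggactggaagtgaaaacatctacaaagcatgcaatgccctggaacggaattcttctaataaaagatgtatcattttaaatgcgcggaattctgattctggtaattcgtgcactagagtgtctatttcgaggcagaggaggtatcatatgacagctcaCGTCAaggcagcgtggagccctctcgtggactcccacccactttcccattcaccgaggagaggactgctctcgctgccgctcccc

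Gad1 could be tested only where it had chosen no nucleus, so both classes were formed again with the limit on Gad2 alone, a step added after seeing the data. This gave 1809, 862 and 1333 granule nuclei and 2580, 2494 and 1369 other glutamatergic nuclei. Gad1 (ENSMUSG00000070880, chromosome 2, 70553072 to 70602014, plus strand), the gene of the GABA-making enzyme GAD67, was at 105, 68.0 and 400.0 CPM in granule nuclei of mice 1, 2 and 3, against 8.71, 21.6 and 29.0 CPM in other glutamatergic nuclei. The groups did not overlap, mouse 3 was the highest in both classes, and the log2 fold change was 3.12 ± 0.44 (adjusted p = 0.00425). In this fit 2624 of 17641 genes were called (14.9%), 979 of them higher (5.55%) and 1645 lower (9.32%). Gad1 was called without each mouse in turn, at 2.68 to 3.75, and without any nucleus holding a UMI of Gad2 or Slc32a1 (3.47). Without the mouse block it was not called (3.45, adjusted p = 0.0657).

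Other genes of GABA neurons were measured in the same nuclei. Gad2 was at 3.05, 4.36 and 7.49 CPM in granule nuclei, against 3.47, 2.07 and 4.89 CPM in other glutamatergic nuclei, levels held down by the gates. The vesicular GABA transporter gene Slc32a1, which no gate used, was at 1.96, 2.56 and 0.762 CPM, against 1.84, 2.36 and 0.927 CPM. The receptor gene Erbb4 was at 128, 305 and 132 CPM in granule nuclei, against 96.9, 288 and 39.1 CPM. Of 5 inhibitory markers tested in this fit all had a fold change above 0, and Gad1 alone was called. At least 1 UMI of Gad1 was found in 58.9%, 31.4% and 93.8% of granule nuclei, against 9.03%, 11.9% and 31.4% of other glutamatergic nuclei. Whether the Gad1 of other glutamatergic nuclei is background or comes from interneuron nuclei among them was not tested. The median depth was 10920, 5610.5 and 25068 UMIs, against 15923.5, 3751 and 38994. With every nucleus thinned to 1000 UMIs the shares were 10.5%, 8.11% and 30.2%, against 0.973%, 3.87% and 2.48%. In each mouse the share was higher in granule nuclei at equal depth. The single Gad1 promoter in RefSeq holds neither CRE form and is shown as the promoter of the gene that decided membership.
Gad1, chr2:70561879-70562178, plus strand: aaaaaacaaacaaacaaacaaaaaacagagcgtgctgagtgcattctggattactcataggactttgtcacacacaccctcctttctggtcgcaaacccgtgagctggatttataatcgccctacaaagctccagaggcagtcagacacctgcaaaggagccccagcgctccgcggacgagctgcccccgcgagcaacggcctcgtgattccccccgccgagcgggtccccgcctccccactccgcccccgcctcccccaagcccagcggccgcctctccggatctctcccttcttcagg

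**Figure D5:**
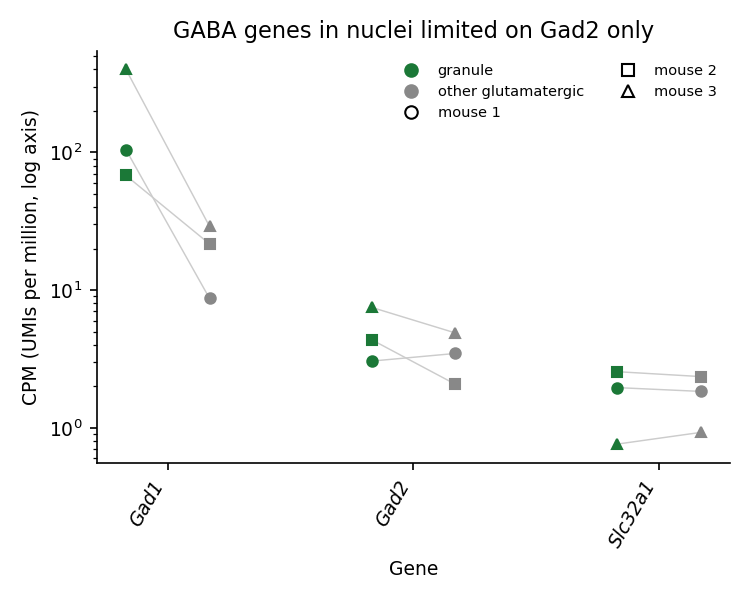
Gad1, Gad2 and Slc32a1 in CPM on a log axis in nuclei limited on Gad2 alone, granule nuclei in green left of other glutamatergic nuclei in grey, 1 symbol per mouse. Gad1 is higher in granule nuclei of each mouse, while Slc32a1 lies at 1.96, 2.56 and 0.762 in granule nuclei.

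Against all other nuclei of the same library, which hold neurons and glia of every kind, granule nuclei had higher levels of the growth factor protease gene Pappa, the integrin gene Itgb8 and the phosphatase gene Plpp4, and lower levels of Kcnmb2, Cntnap4 and Grik1. Of 18079 genes tested 159 were called (0.879%), 48 higher (0.266%) and 111 lower (0.614%), and the median log2 fold change over all genes was -0.005. Among the genes named by rule the highest fold was smaller than above, at 1.84 for Pappa against 4.16 for Zfp536. The lowest was further from 0, at -3.06 for Kcnmb2 against -2.44 for Scube1. This reference also holds nuclei meeting the marker conditions, and every nucleus over the Gad limit. The 6 inhibitory neuron markers summed to 1115, 1151 and 1064 CPM in it, against 138, 305 and 441 CPM in granule nuclei. The rule itself thus places interneuron RNA in the reference, and its part in the genes lower here was not tested. Pappa (1.84 ± 0.25), Itgb8 (1.76 ± 0.16), Plpp4 (1.67 ± 0.22) and Lhfp (1.59 ± 0.17) led the higher genes, at adjusted p of 0.0438 to 0.0452. Lhfp was at 201, 243 and 337 CPM in granule nuclei, against 60.3, 86.0 and 143 CPM. The gastrin-releasing peptide gene Grp was at 104, 63.4 and 22.1 CPM, against 32.5, 25.9 and 8.98 CPM (1.55 ± 0.15), and the secreted protease gene Bmp1 at 101, 48.9 and 65.5 CPM, against 36.7, 24.5 and 33.1 CPM (1.26 ± 0.16). Both groups of Grp followed the same order of mice and overlapped. Col27a1, Tmem47, Sema3a, Rassf8, Gprc5b, Bhlhe41, Napepld and Galnt14 were also among the 15, at 1.48 to 1.16.

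The channel subunit gene Kcnmb2 was at 8.17, 28.4 and 6.76 CPM in granule nuclei, against 124, 116 and 92.6 CPM in all other nuclei (-3.06 ± 0.40, adjusted p = 0.0445). The kainate receptor gene Grik1 averaged 46.0 ± 26.9 CPM in granule nuclei and 244 ± 25.3 CPM in all other nuclei (-2.47 ± 0.33), and the cannabinoid receptor gene Cnr1 was at 20.7, 35.5 and 42.1 CPM, against 105, 117 and 109 CPM (-1.71 ± 0.17). The fast potassium channel gene Kcnc2 averaged 93.8 ± 44.4 CPM in granule nuclei and 369.9 ± 87.0 CPM in all other nuclei. None of the 10 lowest genes named by rule overlapped between the classes, and 9.03% of all genes tested had every granule value below every other value. Of the granule identity genes 1 of 15 was called here, Npnt, and the median was 1.16. The other 14 did not pass, and Tdo2, Lct, Ahcyl2 and Pcp4 were higher in 2 of 3 mice. With the limit on Gad2 alone 12 of 15 were called, among 2687 of 18855 genes called in all (14.3%), 687 higher (3.64%) and 2000 lower (10.6%). No gene was called without mouse 1, without the mouse block, without Scrublet doublets or with RLE scaling, by edgeR, though 1904, 1527, 2941 and 3524 genes had an unadjusted p under 0.05. DESeq2 called 734 on the full set. Without mouse 2 the count was 37 and without mouse 3 it was 952.

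Genes of young neurons were detected together in a minority of granule nuclei. At least 2 of Dcx, Sox11, Sox4, Igfbpl1 and Draxin were detected in 18.9%, 10.2% and 21.5% of granule nuclei of mice 1, 2 and 3, against 15.2%, 5.47% and 23.2% of other glutamatergic nuclei, whose depth differs. Of 14 neurogenesis genes tested 3 were called higher and none lower, with a median of 0.18, against 3.51% and 4.76% of all genes. Of these 14 genes 9 had a fold change above 0. Sox11, a factor gene of immature neurons, was at 82.1, 111 and 65.3 CPM in granule nuclei, against 22.0, 39.1 and 20.1 CPM (1.66 ± 0.13, adjusted p = 0.0062). With nuclei thinned to equal depth, Dcx was detected in 3.73%, 3.94% and 2.01% of granule nuclei of mice 1, 2 and 3. In other glutamatergic nuclei its shares were 4.23%, 2.67% and 3.24%, so Dcx was higher in granule nuclei of mouse 2 only. Sox2 and Mki67 were called at no more than 9.10 CPM in any mouse, and lost their calls without glial-marked granule nuclei, without mouse 1 and without mouse 2. Without mouse 2 Sox11 was the 1 called, and without glial-marked granule nuclei Sox11 and Neurod1 were called higher.

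Markers of other hippocampal neurons were set beside these. Over all genes 3.51% were called higher and 4.76% lower. Of 5 CA1 markers 3 were lower and none higher, with Spink8 at 3.76, 3.78 and 3.64 CPM in granule nuclei, against 15.2, 19.6 and 11.9 CPM in other glutamatergic nuclei (-2.08 ± 0.18). Of 5 CA3 markers 3 were lower, with Cpne4 averaging 108 ± 43.9 CPM and 303 ± 37.1 CPM. Without mouse 2 there was 1 CA1 marker called, Spink8, and 1 CA3 marker, Cpne4, and without mouse 1 the 3 CA3 calls and that of Pou3f1 were lost. Of 5 mossy cell markers 1 was lower, Ajap1. Glial markers also differed. Of 5 astrocyte markers tested Gpc5 alone was called, lower in granule nuclei at 144, 242 and 887 CPM, against 1389, 821 and 1527 CPM (-1.97 ± 0.45, adjusted p = 0.0475), with overlap. Its call was lost without mouse 1, without mouse 2 and without Scrublet doublets. Gpc5 was detected in 75.6%, 66.5% and 89.4% of other glutamatergic nuclei, and whether that is astrocyte RNA was not tested. Of 3 oligodendrocyte markers tested 2 were called higher. The oligodendrocyte marker Mag was higher in granule nuclei, at 31.8, 46.4 and 49.7 CPM, against 10.2, 16.1 and 3.03 CPM. Mag lost its call without glial-marked granule nuclei, without mouse 1, without mouse 2 and without Scrublet doublets. St18 kept its call, at 433, 452 and 468 CPM, against 75.5, 151 and 42.3 CPM (2.48 ± 0.34). The gate of other glutamatergic nuclei asked for less glial than glutamatergic marker RNA, which the granule rule did not, and the 6 oligodendrocyte markers summed to 850, 1074 and 1069 CPM in granule nuclei, against 219, 413 and 122 CPM. St18 made up 433, 452 and 468 CPM of the granule sums and was detected in 91.5%, 73.7% and 77.2% of granule nuclei. Mag was detected in 15.5%, 18.4% and 32.2% of them. Of 16 nuclear and RNA quality genes, Neat1 was higher (1.83 ± 0.24) and Snhg11 lower (-1.06 ± 0.15), and both lost their calls without glial-marked granule nuclei, Snhg11 also without mouse 1 and without mouse 2.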

How the data were processed

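Single-nucleus RNA was measured in 3 hippocampal libraries. The authors deposited 1 matrix per mouse of raw counts (UMIs of a gene in a barcode), made with Cell Ranger 7.0.0 (mice 1 and 2) and 7.1.0 (mouse 3) per the file headers, with mm10 named in the submitters' processing notes. No source used here states how intronic reads were handled, and in nuclei it sets how much RNA of long genes is seen.

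Granule nuclei were chosen by the rule in the opening. Doublets were kept, and an alternative removed those called by Scrublet (scanpy 1.11.5). Other glutamatergic nuclei had at least 3 of Slc17a7, Sv2b, Camk2a, Neurod6 and Kcnq5 at 10 or more per 10000, granule markers under 5 per 10000, the same Gad limit and more glutamatergic than glial marker RNA. Counts were summed per mouse and class and tested with edgeR 4.0.16 in R 4.3.3 (TMM scaling, filterByExpr, quasi-likelihood test, mouse as a block, Benjamini-Hochberg adjustment over all genes tested). Genes of the gates were left out of the test. A standard error is the absolute log2 fold change over the square root of F. Levels (CPM) are UMIs per 1000000 of the summed counts and are not corrected for gene length.

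The block pairs the 2 sums of each animal. Deviations of a mouse's 2 sums from their class means correlated at 0.507, 0.474 and 0.534 against all other nuclei and 0.535, 0.485 and 0.517 against other glutamatergic nuclei, across genes, which are not independent. Summed depth was 12246984, 4760447 and 3845756 UMIs for granule nuclei of mice 1, 2 and 3.

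The genes named are the 15 highest and 10 lowest called folds in each comparison with the same direction in all 3 mice and a mean of 50 CPM or more in the higher class, without gene models, plus list members. The members and the lists were chosen with earlier results of these data known. A few called genes are counted but not reported by name here. Gene positions come from GENCODE and promoters from RefSeq. Alternatives included DESeq2 1.42.0, other scaling, no low-count filter, each mouse left out, no block, stricter gates, thinning to 1000 UMIs, the Gad2 limit alone and the removal of glial-marked nuclei from the granule class only. The last pair, and the test of Gad1, were chosen after seeing the data.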

Additional observations from a re-analysis of the deposited data

How the results depend on the processing

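All 25 genes named against all other nuclei kept their direction under every alternative, and no named or called list gene changed sign in any comparison: 1172 values kept their call and 270 lost it. Against all other nuclei the number of genes called was 159, and it was 717 without the low-count filter, 0 with RLE scaling, 734 with DESeq2, 0 to 952 with 1 mouse left out, 0 without the mouse block, 1491 at a marker sum of 20 or more, 653 with 4 of 5 markers, 0 without Scrublet doublets, 644 after thinning to 1000 UMIs, 2687 with the Gad2 limit alone, 1340 without glial-marked granule nuclei and 929 with granule-marked nuclei taken out of the reference. Against other glutamatergic nuclei it was 1325, and 410 to 1736 with 1 mouse left out, 307 without the mouse block, 424 after thinning and 2624 with the Gad2 limit alone. The cause of these shifts was not tested.

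Left-out markers ranged with 1 mouse left out from 1.01 to 1.92 for Prox1, 1.40 to 2.38 for Glis3, 1.35 to 1.99 for Trpc6, 1.10 to 1.88 for Stxbp6 and 1.19 to 1.87 for Pdzd2 on the log2 scale, and with the Gad2 limit alone they were 2.80, 3.02, 2.51, 2.29 and 2.42. Without the block Pdzd2 was at 1.09 and Gad1 at 3.45, and neither was called.

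The shares of mice 1, 2 and 3 were 8.47%, 2.63% and 1.46% at a marker sum of 20 or more, 10.7%, 3.33% and 2.23% with 4 of 5 markers, 21.0%, 6.53% and 28.6% with the Gad2 limit alone and 10.6%, 3.89% and 1.78% without glial-marked granule nuclei. After thinning they were 3.15%, 1.47% and 3.67%. With 149 granule nuclei in mouse 3 and a median of 1740.5 UMIs per other nucleus in mouse 2, genes of few UMIs are measured with low precision. The Gad2 limit and the removal of glial-marked nuclei were chosen after seeing the data.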
